A study of Mus musculus with 8 samples.

Results

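The 10 genes described here are noncoding hosts of small nucleolar RNAs (snoRNAs), namely Snhg1, Snhg3, Snhg5, Snhg6, Snhg8, Snhg12, Snhg15, Snhg17, Snhg20 and Gas5, out of 55401 genes counted in each library. They were chosen by name, and Snhg17 was picked because it was lower after depletion of either protein. Its values are therefore given as a description without a test, and the question was whether the other 9 hosts were lower as well. All 10 were among the 17532 genes with enough reads to be tested.

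snoRNAs guide the chemical modification or the cleavage of ribosomal RNA, and most mammalian snoRNAs are cut out of introns of a host gene. The hosts named Snhg (small nucleolar RNA host gene) and Gas5 (growth arrest specific 5) are noncoding, so that the conserved products lie in their introns. Many such hosts start with an oligopyrimidine tract (TOP), as do the mRNAs of ribosomal proteins, and their spliced RNA is typically degraded by nonsense-mediated decay (NMD) when it is translated.

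RNA was sequenced from mouse embryonic stem cells (ESCs) of 3 groups: Control (n = 2), Zzz3_auxin (n = 3) and Yeats2_auxin (n = 3). ZZZ3 and YEATS2 are subunits of the ATAC coactivator complex, and the auxin groups carried one of them fused to an auxin-inducible degron (AID), which leads to its degradation when auxin is added at 500 µM for 24 h. ESCs of the study were grown on gelatin with serum, LIF, inhibitors of MEK and GSK3, and G418 to select for Tir1. Tir1 is the rice protein that the degron requires, and the labels do not say whether the controls carried it. The labels give neither the line nor the treatment of the controls, so an effect of auxin itself or of the line cannot be told apart from that of depletion. The labels do not say whether replicates were separate cultures either, so p-values measure only the spread between these samples, which may be technical. Counts of Yeats2_auxin 1 and 3 were much more alike than those of other libraries of the same group. Their mean chi-square per gene was 3.71, against 21.1 to 50.6 for the other pairs within a group. The spread within Yeats2_auxin may therefore be understated, and whether these 2 libraries share a culture is not given.

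Assigned reads ranged from 14315120 to 27884704 per library. Summed levels of 7 ESC markers, among them Pou5f1 and Nanog, lay between 4176 and 4921 CPM (read counts relative to library size, with TMM scaling) in all libraries, whereas 6 markers of fibroblast feeders summed to between 7.06 and 12.4 CPM. The ESC sum hides its members, since Tfcp2l1 alone was at 2345 CPM in Control. Against Control, log2 fold changes in Zzz3_auxin and Yeats2_auxin were 0.62 and 0.55 for Pou5f1 and −0.22 and −0.28 for Nanog. Of the 7 ESC markers, 4 were below 0 in Zzz3_auxin and 3 in Yeats2_auxin, none with an adjusted p under 0.05. In bulk RNA, fewer cells of a type and less RNA per cell cannot be told apart. Zzz3 mRNA was at 77.5 to 112 CPM in Zzz3_auxin and at 182 and 186 CPM in Control, and Yeats2 mRNA was at 43.7 to 103 CPM in Yeats2_auxin and at 90.9 and 95.8 CPM in Control. Since the degron acts on the protein, these mRNA levels do not measure depletion. The difference in log2 level between GC-rich and GC-poor genes, relative to the mean of all libraries, was −0.63 in Control 1 and 0.47 in Zzz3_auxin 3, against −0.081 to 0.16 in the other 6 libraries.

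The start regions of the hosts were examined first, because a TOP tract begins at the first transcribed base. RefSeq (GRCm38.p6) gave a start for 9 of the 10 hosts, with 2 starts each for Gas5 and Snhg17. The search was for a C followed by at least 4 bases that were each C or T, on the transcribed strand only, beginning within 5 bases of the annotated start. Such a run was present in 4 of 9 hosts (44.4%), which were Gas5, Snhg3, Snhg8 and Snhg12. A gene counted if any of its starts had the run, and the first start of Gas5 had none. With the annotated start as position 1 and the base before it as 0, the run began at 1 in Snhg8 and 3 in Snhg3. In Gas5 the run began at 0 and in Snhg12 at −1, thus before the annotated start. It was present in 21.2% of 27025 genes with a promoter sequence of the same length, in 23.9% of the 11362 tested genes among them, and in 46% of 63 ribosomal protein genes. The windows below run 5′ to 3′ from 20 bases before the annotated start to 30 bases from it, and capitals mark the run. The first 3 are shown as hosts with the run, and the next 3 as Snhg17 and the hosts whose levels were closest to control. Snhg8, which has the run but overlapped Control in its levels, is not shown. Snhg1 and Snhg5, which lack the run but had every auxin library below both controls, are not shown either. A link between the run and the levels was not tested.
Gas5, second start, chr1:161035146-161035195, plus strand: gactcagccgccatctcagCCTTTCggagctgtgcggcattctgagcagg
Snhg12, chr4:132308658-132308707, plus strand: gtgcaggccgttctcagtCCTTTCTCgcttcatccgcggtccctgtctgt
Snhg3, chr4:132353657-132353706, minus strand: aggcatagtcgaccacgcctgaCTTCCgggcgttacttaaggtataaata
Snhg17, first start, chr2:158361493-158361542, minus strand: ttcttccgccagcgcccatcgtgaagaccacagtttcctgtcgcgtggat
Snhg15, chr11:6528731-6528780, minus strand: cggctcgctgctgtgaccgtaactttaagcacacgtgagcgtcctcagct
Snhg20, chr11:117076763-117076812, plus strand: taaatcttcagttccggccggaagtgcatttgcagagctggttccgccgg
No match says only that these letters are not in this window around the annotated start, which may not be the start used in these cells.

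In Control, the hosts spanned a wide range of levels per length of exon. Gas5 had the highest level, at 196 ± 8.72 CPM per kb of exon (SD, n = 2), followed by Snhg5 at 188 ± 2.22, a difference smaller than the SD of Gas5. Snhg1 (135 ± 6.54) and Snhg3 (133 ± 9.78) did not differ beyond their spread, and Snhg6 was next at 77.3 ± 8.65. Snhg12 (55.4 ± 1.62) was above Snhg15 (47.3 ± 0.624), which did not differ from Snhg8 (43.2 ± 7.97) beyond the spread of the latter. Snhg17 (16.7 ± 0.25) and Snhg20 (9.53 ± 0.1) were lowest on this scale. Gas5 and Snhg5 stood at percentiles 99.1 and 99 of all tested genes on this scale, whereas Snhg17 stood at percentile 80.4 and Snhg20 at percentile 69.8. The exon lengths include introns that some annotated isoforms retain, so levels per length are understated for hosts with many such isoforms, of which Gas5 has 20 among 25 annotated transcripts and Snhg1 has 14 among 18.

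Snhg17 (chr2:158353700-158361580, minus strand) was at 116 and 119 CPM in Control, at 47.0, 59.8 and 62.4 CPM in Zzz3_auxin and at 69.9, 64.3 and 58.7 CPM in Yeats2_auxin. Every auxin library was below both controls, which is the pattern that it was picked for. Its log2 fold change (FC) was −1.06 in Zzz3_auxin and −0.87 in Yeats2_auxin against Control, at percentiles 1.11 and 1.86 of all tested genes. Zzz3_auxin and Yeats2_auxin share the 2 control libraries, so the values of both comparisons are not independent of each other.

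The remaining 9 hosts were mostly lower in Zzz3_auxin than in Control, but none of them passed the test. Of these 9, 8 had a log2 FC below 0 (48.9% of all tested genes), with a median of −0.60 against 0.0098 over all tested genes. edgeR's quasi-likelihood test called 0 of 9 at an adjusted p under 0.05, where it called 0.753% of all genes in either direction and 0.257% lower. At an unadjusted p under 0.05, 6 of 9 were lower and 0 higher, with 10.1% of all genes lower. For 7 of 9, all Zzz3_auxin libraries lay below both controls, which held for 18.9% of all genes. DESeq2 called 6 of 9 lower (3.41% of the genes it gave an adjusted p), which were Snhg1, Snhg3, Snhg5, Snhg6, Snhg12 and Gas5, so the call depended on the tool.

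In Yeats2_auxin these hosts were also mostly below Control, and again none of them passed the test. All 9 had a log2 FC below 0 (51.1% of all tested genes), with a median of −0.40 against −0.0081 over all genes. edgeR called 0 of 9 (0.445% of all genes in either direction, 0.114% lower), 5 of 9 were lower at an unadjusted p under 0.05 (6.98% of all genes) and 7 of 9 had all Yeats2_auxin libraries below both controls (21% of all genes). DESeq2 called 1 of 9, Snhg3 (1.18% of the genes it gave an adjusted p).

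**Figure D1:**
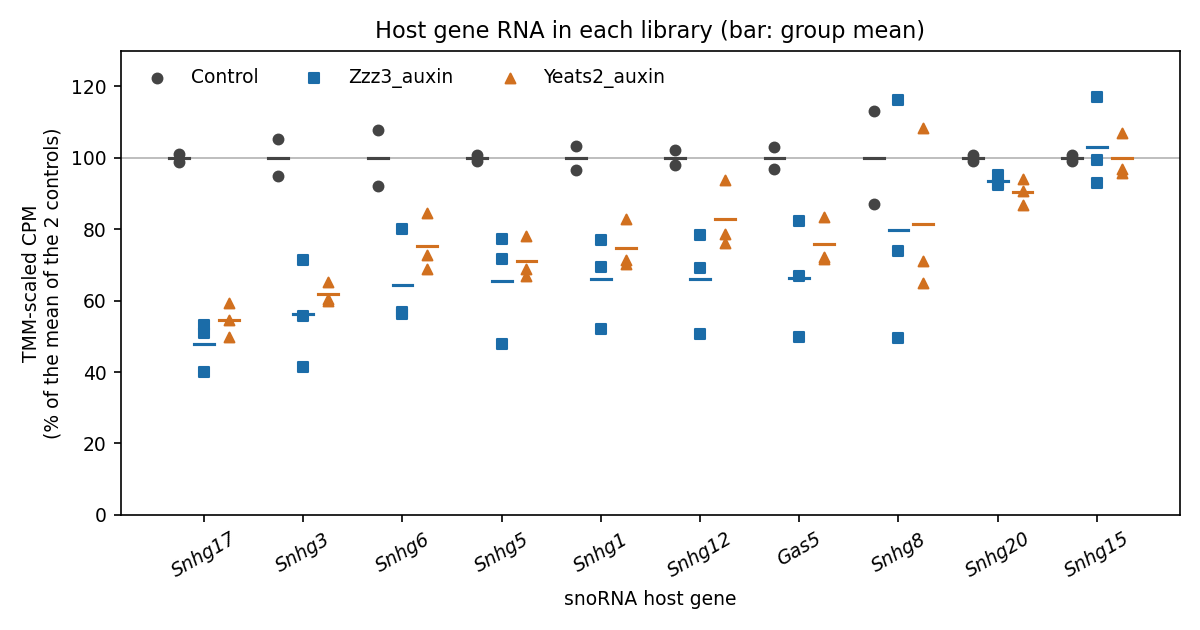
Level of each host in each library as a percentage of the mean of the 2 controls (vertical axis, TMM-scaled CPM), with hosts along the horizontal axis, 1 point per library and bars at group means. Both auxin groups lie below both controls for 8 of the 10 hosts including Snhg17, the exceptions being Snhg8 and Snhg15.

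Gas5 (chr1:161034422-161038539, plus strand) holds 10 annotated snoRNA genes, the most of all hosts, and is known to accumulate when growth stops. It was at 760 and 714 CPM in Control, at 367, 606 and 493 CPM in Zzz3_auxin and at 532, 616 and 527 CPM in Yeats2_auxin. No auxin library reached the lower control, and Zzz3_auxin 1 was lowest. The log2 FC was −0.59 in Zzz3_auxin (SE 0.17, edgeR adjusted p = 0.102) and −0.40 in Yeats2_auxin (SE 0.18, edgeR adjusted p = 0.322).

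Snhg1 (chr19:8723475-8726443, plus strand) holds 8 snoRNA genes, more than any host but Gas5. It was at 415 and 387 CPM in Control, at 209, 308 and 279 CPM in Zzz3_auxin and at 281, 332 and 287 CPM in Yeats2_auxin. The auxin libraries again did not overlap the controls. Its log2 FC against Control was −0.60 in Zzz3_auxin (SE 0.16, edgeR adjusted p = 0.0810) and −0.42 in Yeats2_auxin (SE 0.16, edgeR adjusted p = 0.250).

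Snhg3 and Snhg12 are neighbours on chromosome 4 on opposite strands, at 132348014 to 132353686 and 132308623 to 132311024. Snhg3, the host of both genes for U17 snoRNA (Snora73a and Snora73b), which is needed for early cleavage of the ribosomal RNA precursor, was at 138 and 125 CPM in Control, at 54.3, 93.8 and 73.2 CPM in Zzz3_auxin and at 79.3, 78.7 and 85.5 CPM in Yeats2_auxin. Its log2 FC was −0.83 in Zzz3_auxin (SE 0.18, edgeR adjusted p = 0.0576) and −0.69 in Yeats2_auxin (SE 0.18, edgeR adjusted p = 0.134), the lowest of the 9 hosts in both comparisons. The 95% intervals ran from −1.23 to −0.43 and from −1.09 to −0.29.

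Snhg12, with 5 annotated snoRNA genes, was at 130 and 136 CPM in Control, at 67.5, 104 and 91.9 CPM in Zzz3_auxin and at 105, 125 and 101 CPM in Yeats2_auxin. Its auxin libraries did not overlap the controls, but Yeats2_auxin 2 came near the lower of them. This gave a log2 FC of −0.60 in Zzz3_auxin (SE 0.17, edgeR adjusted p = 0.0908) and −0.27 in Yeats2_auxin (SE 0.17, edgeR adjusted p = 0.475).

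Snhg5 (chr9:88521050-88522929, minus strand), the host of Snord50a and Snord50b, was at 323 and 328 CPM in Control, at 156, 252 and 233 CPM in Zzz3_auxin and at 217, 254 and 224 CPM in Yeats2_auxin. The controls differed little and every auxin library was below them. Against Control, the log2 FC was −0.61 in Zzz3_auxin (SE 0.17, edgeR adjusted p = 0.0942) and −0.49 in Yeats2_auxin (SE 0.17, edgeR adjusted p = 0.231).

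Snhg6 (chr1:9941959-9944118, minus strand), the host of Snord87, was at 95.6 and 81.6 CPM in Control, at 49.9, 71.0 and 50.3 CPM in Zzz3_auxin and at 61.0, 74.9 and 64.4 CPM in Yeats2_auxin. The highest auxin library in each group lay closer to the lower control than the controls lay to each other. In edgeR its log2 FC was −0.63 in Zzz3_auxin (SE 0.17, edgeR adjusted p = 0.0840) and −0.41 in Yeats2_auxin (SE 0.17, edgeR adjusted p = 0.295).

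The last 3 hosts were nearer to control. Snhg8 (chr3:123507552-123508404, minus strand), the host of Snora24, was at 32.0 and 41.6 CPM in Control, at 18.3, 27.3 and 42.8 CPM in Zzz3_auxin and at 26.2, 39.9 and 23.9 CPM in Yeats2_auxin. Its groups overlapped, and its spread relative to the mean (SD of 18.5%, 42.1% and 28.8% of the mean in Control, Zzz3_auxin and Yeats2_auxin) was the widest of the 10 hosts in each group. The difference came to a log2 FC of −0.33 in Zzz3_auxin (95% interval −1.04 to 0.38) and −0.30 in Yeats2_auxin (95% interval −1.0 to 0.41), which leaves a change as large as that of the other hosts possible.

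Snhg15 (chr11:6525591-6528760, minus strand), the host of Snora9, was at 64.9 and 63.7 CPM in Control, at 59.7, 64.0 and 75.3 CPM in Zzz3_auxin and at 61.6, 68.8 and 62.3 CPM in Yeats2_auxin. All 3 groups overlapped. It thus had a log2 FC of 0.043 in Zzz3_auxin (95% interval −0.24 to 0.32) and −0.0011 in Yeats2_auxin (95% interval −0.28 to 0.28), and its sign varied between the ways of processing the counts.

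Snhg20 (chr11:117076008-117078955, plus strand) holds no annotated snoRNA gene but a small Cajal body RNA (scaRNA) gene, Gm26083, a related class that guides modification of spliceosomal RNAs. It was at 26.8 and 26.4 CPM in Control, at 24.7, 24.6 and 25.4 CPM in Zzz3_auxin and at 25.1, 24.2 and 23.1 CPM in Yeats2_auxin. The libraries did not overlap, yet the differences were small. For this host the log2 FC was −0.099 in Zzz3_auxin (95% interval −0.37 to 0.17) and −0.14 in Yeats2_auxin (95% interval −0.42 to 0.13).

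**Figure D2:**
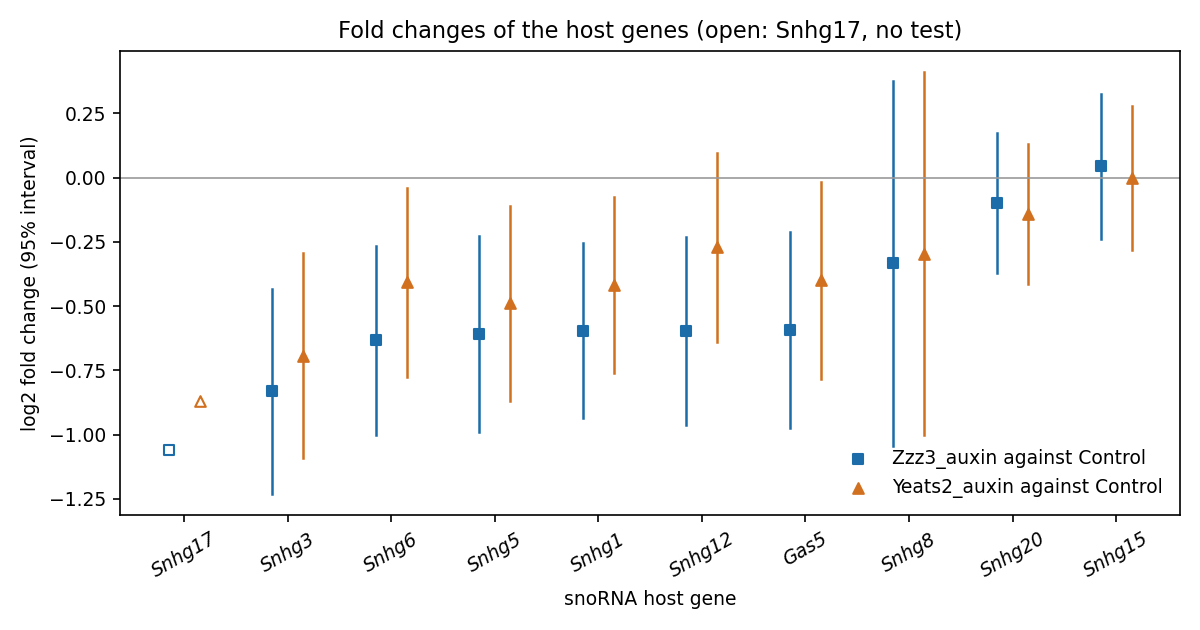
log2 FC of each host against Control (vertical axis) with its 95% interval from edgeR, squares for Zzz3_auxin and triangles for Yeats2_auxin; open symbols without interval are Snhg17, which was not tested. Intervals exclude 0 without adjustment for 6 hosts in Zzz3_auxin and 5 in Yeats2_auxin, whereas those of Snhg8, Snhg15 and Snhg20, and of Snhg12 in Yeats2_auxin, include it.

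Further ways of processing also gave calls in Zzz3_auxin against Control. Without a filter on low counts, edgeR called the same number, 6 of 9, lower (1.5% of all genes), and so it did without Zzz3_auxin replicate 2 (2.01% of all genes). In both cases these were Snhg1, Snhg3, Snhg5, Snhg6, Snhg12 and Gas5. The adjusted p of Snhg3 was 0.00343 with DESeq2 and ranged from 5.89e-06 to 0.497 over 17 alternatives, and that of Gas5 was 0.0406 with DESeq2 and ranged from 0.00162 to 0.571. In Yeats2_auxin, edgeR called Snhg3 without a filter (0.421% of all genes) and without Zzz3_auxin replicate 1 (0.259%), and Snhg3 and Snhg5 when only the 2 groups compared entered the fit (0.99%). The median of the 9 hosts stayed below 0 in all 17 alternatives of each comparison with Control.

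The direct comparison of Yeats2_auxin with Zzz3_auxin does not use the level of the controls. Of the 9 hosts, 2 had a log2 FC below 0 (52.2% of all genes) and 7 had a higher level in Yeats2_auxin, with a median log2 FC of 0.14 against −0.013 over all genes. edgeR called 0 of 9 (0% of all genes), 0 of 9 had an unadjusted p under 0.05 (6.25% of all genes), and DESeq2 called 0 of 9. For 0 of 9 the libraries of both groups were separate, which held for 5.82% of all genes lower and 5.25% higher. The host with the largest difference was Snhg12, at 0.33 (95% interval −0.0053 to 0.66, edgeR adjusted p = 0.779). Without Zzz3_auxin replicate 1 the median was −0.044 and without Zzz3_auxin replicate 2 it was 0.30, so that its direction rested on single libraries.

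Single libraries of Zzz3_auxin differed more from each other than the medians of both auxin groups did. The median log2 difference of the 9 hosts from the control mean was −0.97, −0.35 and −0.52 in Zzz3_auxin 1 to 3 and −0.47, −0.24 and −0.48 in Yeats2_auxin 1 to 3. Zzz3_auxin 1 was the lowest of all libraries for 9 of the 10 hosts, the exception being Snhg20. Without it the median log2 FC of the 9 hosts in Zzz3_auxin was −0.41. The median over 17 genes of the mitochondrial genome was also below both controls (0.18 and −0.18) in every auxin library, at −0.35, −0.51 and −0.44 in Zzz3_auxin 1 to 3 and at −0.28, −1.04 and −0.30 in Yeats2_auxin 1 to 3. It was lowest in Yeats2_auxin 2, the auxin library with the hosts nearest to control, and its part in the differences of the hosts was not tested. For Snhg17 the differences were −1.31, −0.97 and −0.91 in Zzz3_auxin and −0.75, −0.87 and −1.0 in Yeats2_auxin. These lay below the median of the 9 hosts in every auxin library. Because Snhg17 was picked for its fall in these same libraries, this does not show that it differs from the other hosts.

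**Figure D3:**
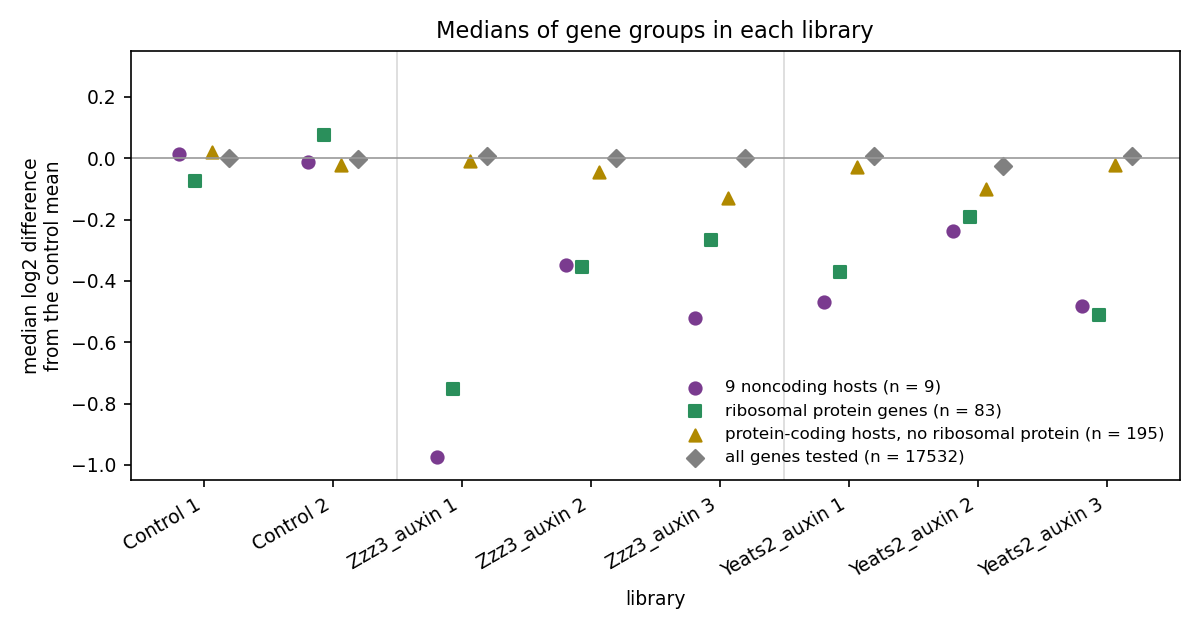
Median log2 difference from the control mean (vertical axis) in each of the 8 libraries (horizontal axis) for the 9 noncoding hosts, 83 ribosomal protein genes, 195 protein-coding snoRNA hosts that encode no ribosomal protein, and all tested genes. The noncoding hosts and the ribosomal protein genes are lowest in Zzz3_auxin 1, at −0.97 and −0.75, whereas the protein-coding hosts stay between −0.13 and 0.022.

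GC content separated the hosts in part. GC content was taken from the longest annotated transcript of each gene, which may retain introns. It was 40.5% to 47.6% in the 6 hosts with an unadjusted p under 0.05 in Zzz3_auxin and 45.7% in Snhg8. Snhg15, Snhg17 and Snhg20 were at 53.9%, 52.3% and 53.1%. Since 1 control and 1 Zzz3_auxin library stood apart in their trend on GC, a correction of that trend and of exon length was applied to each library. The median log2 FC of the 9 hosts was then −0.38 in Zzz3_auxin and −0.24 in Yeats2_auxin, and 0 of 9 were called in either. Snhg3 had −0.61 in Zzz3_auxin, Snhg1 −0.36 and Gas5 −0.40, each closer to 0 than before, while Snhg15 had −0.086 and Snhg20 −0.22. The value of Snhg17 was −1.18 in Zzz3_auxin and −0.97 in Yeats2_auxin, thus further from 0 than before. The part of GC content in the differences between hosts was not tested beyond this correction.

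**Figure D4:**
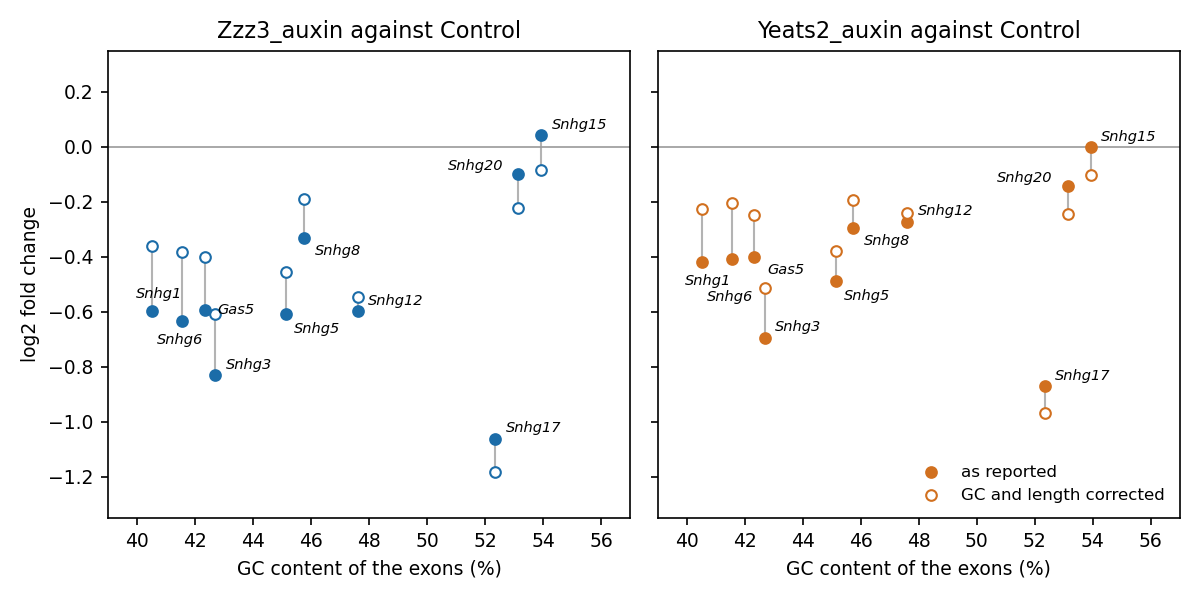
log2 FC against Control (vertical axis) of each host by the GC content of its longest annotated transcript (horizontal axis, percent, labelled there as that of the exons), for Zzz3_auxin (left) and Yeats2_auxin (right). Filled points are the reported values and open points those after correction for GC content and length. The 7 hosts under 50% GC move towards 0 with the correction, and Snhg15, Snhg17 and Snhg20 move down.

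The snoRNAs themselves could be followed for few hosts. The annotation places 33 snoRNA genes inside 9 of the 10 hosts, and 30 of them lie entirely within an annotated exon of some host isoform. These are counts of annotated entries, and Snora16a in Snhg12 and Snord80 in Gas5 each have overlapping entries of the same name. All 30 were listed with 0 reads in every library, and so were 134 of all 135 snoRNA genes of the annotation in that position, since the counting leaves a read that could belong to either gene unassigned. This includes all 3 snoRNA genes of Snhg17 and all 10 of Gas5, about which the counts therefore say nothing. The other 3 had reads. Libraries of this kind also capture short RNAs poorly.

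The sequences of the 2 snoRNAs that lie outside host exons are given from the GENCODE transcripts of GRCm38, with capitals on the ACA box of Snora73b, an H/ACA snoRNA, and on the C and D boxes of Snord87, a C/D snoRNA.
Snora73b, in Snhg3, chr4:132352322-132352526, minus strand: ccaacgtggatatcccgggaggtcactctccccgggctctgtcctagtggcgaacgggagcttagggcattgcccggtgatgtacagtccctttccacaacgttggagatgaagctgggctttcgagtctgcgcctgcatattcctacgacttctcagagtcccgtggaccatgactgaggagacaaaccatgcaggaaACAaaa
Snord87, in Snhg6, chr1:9942463-9942549, minus strand: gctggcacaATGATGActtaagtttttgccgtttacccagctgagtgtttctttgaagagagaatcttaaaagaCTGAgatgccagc
Snora73b was at 222 and 268 CPM in Control, at 50.2, 166 and 122 CPM in Zzz3_auxin and at 207, 248 and 169 CPM in Yeats2_auxin. Zzz3_auxin lay below the controls and Yeats2_auxin overlapped them. Its log2 FC was −1.12 in Zzz3_auxin (SE 0.40, edgeR adjusted p = 0.157) and −0.24 in Yeats2_auxin (SE 0.40, edgeR adjusted p = 0.818), so neither passed the test. With snoRNA reads added to those of the host, Snhg3 had a log2 FC of −1.01 in Zzz3_auxin and of −0.38 in Yeats2_auxin.

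Snord87 was at 5.58 and 5.76 CPM in Control, at 3.38, 5.53 and 2.54 CPM in Zzz3_auxin and at 4.02, 4.99 and 4.23 CPM in Yeats2_auxin. All auxin libraries were below the controls, Zzz3_auxin 2 only slightly. Its log2 FC was −0.55 in Zzz3_auxin (SE 0.28, edgeR adjusted p = 0.289) and −0.36 in Yeats2_auxin (SE 0.28, edgeR adjusted p = 0.586), near the values of its host Snhg6.

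**Figure D5:**
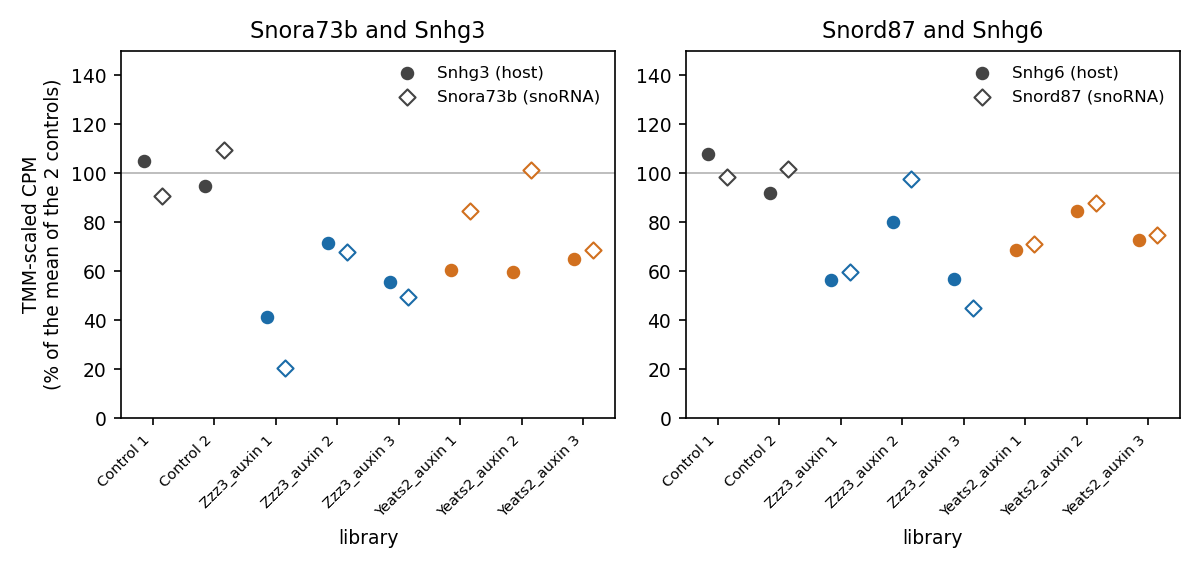
Level of Snora73b with its host Snhg3 (left) and of Snord87 with its host Snhg6 (right) in each library, as a percentage of the mean of the 2 controls (vertical axis, TMM-scaled CPM); filled circles are hosts, open diamonds snoRNAs, and colours the groups. In Yeats2_auxin 2, Snora73b is above the control mean while Snhg3 is below it.

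Other noncoding snoRNA hosts were counted in the same way. Of 10 further hosts listed, 8 were tested and 2, Snhg4 and Snhg7, could not be matched to an identifier and were not analysed here. edgeR called 0 of 8 in either comparison with Control (0.753% and 0.445% of all genes). At an unadjusted p under 0.05, 3 were lower in Zzz3_auxin (10.1% of all genes) and 2 in Yeats2_auxin (6.98%), and 0 were higher. Medians of log2 FC were −0.47 and −0.19, against 0.0098 and −0.0081 over all genes. Zfas1, the host of Snord12 genes, was at 175 ± 9.26 CPM in Control (SD, n = 2) and had the smallest p of the list in Zzz3_auxin, with log2 FC of −0.81 there (SE 0.20, edgeR adjusted p = 0.0756) and −0.49 in Yeats2_auxin (SE 0.20, edgeR adjusted p = 0.286). In Yeats2_auxin the smallest p was that of Snhg10, at 2.38 ± 0.36 CPM in Control (SD, n = 2), with −0.51 in Zzz3_auxin and −0.68 in Yeats2_auxin (SE 0.26, edgeR adjusted p = 0.251). Snhg14, whose long transcript carries the imprinted snoRNA clusters next to Snrpn, had −0.58 and −0.35, and Dancr −0.45 and −0.23, none of which passed the test.

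Most snoRNAs reside in genes that encode proteins, and 225 such hosts were tested. Of these, 3 fell in Zzz3_auxin (0.257% of all genes) and 1 in Yeats2_auxin (0.114%), and 0 rose. At an unadjusted p under 0.05, 55 were lower and 23 higher in Zzz3_auxin (10.1% and 11.6% of all genes), and 27 were lower and 12 higher in Yeats2_auxin (6.98% and 7.65%). Medians of log2 FC were −0.12 and −0.11. Rpl13, a protein of the large ribosomal subunit, fell in both, with −1.11 (SE 0.15, edgeR adjusted p = 0.0183) and −1.09 (SE 0.15, edgeR adjusted p = 0.0204). Rpl39, of the same subunit, fell in Zzz3_auxin from 814 ± 109 CPM (SD, n = 2) to 380 ± 106 CPM (SD, n = 3), with an edgeR adjusted p of 0.0396. The splicing factor Sf3b3 fell in Zzz3_auxin by 0.53 on the log2 scale (SE 0.10, edgeR adjusted p = 0.0454).

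The protein-coding hosts were then divided by their product, a division made after their values were seen. Over 30 hosts that encode ribosomal proteins, medians of log2 FC were −0.49 in Zzz3_auxin and −0.32 in Yeats2_auxin, with 2 and 1 called lower, whereas over the other 195 they were −0.092 and −0.086, with 1 and 0 called lower. All 83 ribosomal protein genes, hosts or not, had medians of −0.51 and −0.37, with 8 and 4 called lower and 0 higher. Over all genes, 0.257% were called lower in Zzz3_auxin and 0.114% in Yeats2_auxin. In the most abundant other hosts, Atp5b of the ATP synthase had 0.21 and 0.20, the nucleolar protein Ncl −0.35 and 0.24, and the ribosome-bound scaffold Rack1 −0.16 and −0.38, none of which passed the test. Nothing here was tested as a difference between lists.

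Genes that act on snoRNAs or on host RNA showed 0 calls by edgeR in either comparison with Control. For 8 core proteins of snoRNPs, medians of log2 FC were −0.23 in Zzz3_auxin and −0.086 in Yeats2_auxin, where the H/ACA proteins Nop10 and Nhp2 had −0.56 and 0.71 in Zzz3_auxin and −0.63 and 0.40 in Yeats2_auxin. For 11 assembly factors, medians were −0.037 and 0.057, with the AAA+ ATPases Ruvbl1 and Ruvbl2 at 0.37 and 0.79 in Zzz3_auxin. At an unadjusted p under 0.05 in Zzz3_auxin, 3 of the 8 core proteins were lower and 1 was higher, and 1 of the 11 assembly factors was lower and 2 were higher, where 10.1% of all genes were lower and 11.6% higher.

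Of 12 NMD factors, 5 were higher in Zzz3_auxin and 2 in Yeats2_auxin at an unadjusted p under 0.05, where 11.6% and 7.65% of all tested genes were, and 0 were lower. Medians of log2 FC were 0.17 and 0.13. Upf1, the helicase at the centre of NMD, had 0.43 in Zzz3_auxin (SE 0.15, edgeR adjusted p = 0.136) and 0.32 in Yeats2_auxin (SE 0.15, edgeR adjusted p = 0.349), and Smg5, which recruits decay enzymes, had 0.44 and 0.34. The GC content of Upf1, Smg5, Smg9 and Dhx34 was 56.5% to 60.3%, above that of every host. The part of GC content was not tested for this or the other lists, whose values given here were not corrected for it. For 5 genes of the exon junction complex, medians were −0.042 and 0.056, and Magoh had −0.51 and −0.30. At an unadjusted p under 0.05, 2 of these 5 were lower in Zzz3_auxin (10.1% of all genes) and 0 in Yeats2_auxin.

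For 9 regulators of TOP mRNAs, medians were 0.21 and 0.081. At an unadjusted p under 0.05, 3 were higher and 1 lower in Zzz3_auxin (11.6% and 10.1% of all genes), and 1 was higher and 0 lower in Yeats2_auxin (7.65% and 6.98%). Eif4ebp1, which represses translation when mTOR is inactive, had 0.78 in Zzz3_auxin (SE 0.20, edgeR adjusted p = 0.0790) and 0.46 in Yeats2_auxin (SE 0.20, edgeR adjusted p = 0.309), while Mtor itself had 0.34 and 0.24. Larp4, an RNA-binding protein of the La-related family, had −0.38 in Zzz3_auxin (SE 0.15, edgeR adjusted p = 0.172) and −0.20 in Yeats2_auxin (SE 0.15, edgeR adjusted p = 0.554), and Rptor, a subunit of the same kinase complex as mTOR, had 0.43 and 0.23. GC content was 48.2% in Eif4ebp1, 54.2% in Mtor, 56.5% in Rptor and 38.7% in Larp4.

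The genes whose levels over the 8 libraries were most like those of the hosts were found among protein-coding genes of at least 10 CPM, by Pearson r of log2 CPM. For the mean of the 9 hosts these were Psma5 (r = 0.989), Mgat2 (r = 0.988), Rpl36a (r = 0.987), Atp6v1a (r = 0.986) and Rps4x (r = 0.986). For Snhg17 they were E330009J07Rik (r = 0.992), Tmem65 (r = 0.986), Rpl22l1 (r = 0.983), Ankrd16 (r = 0.980) and Zfp58 (r = 0.979). Of these 10 genes, Rpl36a, Rps4x and Rpl22l1 encode ribosomal proteins or a paralog of one, and no gene was in both lists. The share of ribosomal protein genes among all genes searched was not determined. None of the 10 was among the protein-coding snoRNA hosts. The 8 points of each r include the difference between groups, and share depth and base composition of their libraries.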

How the data were processed

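Per the labels, RNA was extracted from 8 samples of mouse ESCs and sequenced after ribosomal RNA depletion with a stranded total RNA kit, although the molecule is given there as poly(A) RNA. The deposited values were raw counts per gene, 1 file per library. Adapters were trimmed by the authors with cutadapt and ribosomal reads discarded, then alignment to mm10 was done with STAR 2.5.3a, and HTSeq 0.6.1p1 counted unique, unambiguous reads in union mode on Ensembl annotation, with no normalization. The strand option is not given in the sources used here. Among genes covered entirely by exons of another gene, 0 of 424 with the other gene on the same strand and 142 of 342 with it on the opposite strand had a read, as counting by strand gives. Reads lost as ambiguous were 1.51% to 2.79% of those assigned or ambiguous. Multiply mapped reads were left out, so genes with near-identical copies, such as some of ribosomal proteins, may lose reads.

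GENCODE annotation of GRCm38 (the assembly of mm10), whose release differs from that of the counts, matched 55141 of 55401 identifiers and gave symbols and exons. GC content was that of the longest transcript of each gene, and length that of all its exons. Snhg16 was matched through its older name 1810032O08Rik. The main test was that of edgeR 4.0.16 in R 4.3.3 (filterByExpr, TMM, robust quasi-likelihood test, 1 mean per group over all 8 libraries), two-sided, with Benjamini-Hochberg adjustment over all genes tested in each comparison and calls at an adjusted p under 0.05. SE were taken as the size of the log2 FC over the root of its F value. DESeq2 1.42.0, which the authors used in version 1.16.1, was an alternative, beside other size factors and filters, only the groups compared, the replicate number as a block, lowess correction (span 0.3) for GC content and length of exons within each library, snoRNA reads added to hosts, and leaving out each library. Library medians used log2 of CPM plus 0.5. The fits were tested on simulated data, where a larger share of the calls was false with DESeq2 than with edgeR in each comparison. DESeq2 also recovered a larger share of the changed genes in each. The simulated counts used edgeR's own estimates of spread and held no GC trend, so they cannot rank the tools on these data. Counting error is small at this depth for the more abundant hosts. It is larger for Snora73a and Snord87, which had 189 and 866 reads over all 8 libraries. The 2 controls limit precision.

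The 10 hosts, the gene lists and the alternatives were chosen with earlier results of these data known. All hosts are named, along with at most 4 genes of each list by smallest p, at most 5 protein-coding hosts by smallest p and 5 by abundance, snoRNAs inside hosts at 1 CPM or more, and the 5 genes most like the hosts. Protein-coding hosts are those whose span holds an annotated snoRNA on the same strand. Ribosomal protein genes were taken by symbol after the data were seen.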

Additional observations from a re-analysis of the deposited data

How the results depend on the processing

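The median log2 FC of the 9 hosts other than Snhg17 was below 0 in all 17 alternatives of each comparison with Control. It moved beyond the spread between replicates only with the correction for GC content and length in Zzz3_auxin, to −0.38, and ranged from −0.73 to −0.41 in Zzz3_auxin and from −0.50 to −0.34 in Yeats2_auxin when single libraries were left out. In the direct comparison it ranged from −0.044 to 0.30. The number of these hosts called in Zzz3_auxin, 0 by edgeR, was 6 with DESeq2, 6 without a filter on low counts and 0 to 6 with 1 library left out (6 without Zzz3_auxin replicate 2, 0 otherwise). In Yeats2_auxin it was 1, 1 and 0 to 1 (1 without Zzz3_auxin replicate 1), and 2 with the fit limited to the groups compared. The cause of these differences was not tested. It was 0 in every alternative of the direct comparison.

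Over all genes, edgeR called 132 in Zzz3_auxin, 78 in Yeats2_auxin and 0 in the direct comparison. DESeq2 called 1114, 434 and 3, edgeR without a filter 1542, 553 and 117, and edgeR with only the compared groups 0 in Zzz3_auxin and 454 in Yeats2_auxin. Corrected for GC content and length, Yeats2_auxin had 132. With 1 library left out the calls were 0 to 841, 0 to 217 and 0 to 1, being 0 without Control replicate 1. In Zzz3_auxin they were 0 without Control replicate 2 as well. The cause was not tested. Deviations of same-numbered libraries from their group means had r between −0.34 and 0.31, and those of differently numbered libraries between −0.37 and 0.37. The deviations of the 2 controls mirror each other by construction, so these values cannot settle whether a shared number pairs libraries. With the replicate block, 42 and 32 genes and 0 of the 9 hosts were called, and 66 genes in Zzz3_auxin with the replicate block and the GC and length correction together.

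The log2 FC of Snhg17 was between −1.19 and −0.93 in Zzz3_auxin and between −0.97 and −0.81 in Yeats2_auxin in all alternatives. With 2 controls, a host that differs by less than the intervals given, such as Snhg8, could not be told from one that does not differ, and snoRNAs inside host exons could not be counted at any depth.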

Other observations

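Genes that overlap the hosts were described as well. Rcc1, which encodes the nuclear exchange factor of the GTPase Ran and shares 135 bases of exon with Snhg3 on the same strand, had a log2 FC of −0.16 in Zzz3_auxin (SE 0.13, edgeR adjusted p = 0.481) and 0.034 in Yeats2_auxin (SE 0.13, edgeR adjusted p = 0.925), and its groups overlapped. Reads from the shared bases are ambiguous and were counted for neither gene. Zbtb37, which lies on the strand opposite to Gas5, was at 92.0 ± 14.6 CPM in Control (SD, n = 2), at 53.3, 78.7 and 78.4 CPM in Zzz3_auxin and at 85.5, 68.3 and 85.7 CPM in Yeats2_auxin. Zzz3_auxin lay below both controls and Yeats2_auxin overlapped them, with log2 FC of −0.39 (SE 0.18, edgeR adjusted p = 0.241) and −0.20 (SE 0.18, edgeR adjusted p = 0.639). Mcmdc2, opposite to Snhg6, had −0.47 and −0.57 at 2.78 ± 0.169 CPM in Control (SD, n = 2), which did not pass the test in either comparison. These neighbours were chosen after their values were seen.

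Snora73a, the other U17 gene of Snhg3, has 77.6% of its bases in host exons. It was at 1.43 and 0.907 CPM in Control, at 1.07, 1.21 and 1.34 CPM in Zzz3_auxin and at 0.928, 0.579 and 0.752 CPM in Yeats2_auxin. Its groups overlapped in Zzz3_auxin and in Yeats2_auxin, and neither log2 FC (0.040 and −0.63) passed the test.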
